A study of Mus musculus with 4 samples.

Results

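Long non-coding RNA genes of mouse macrophages were described across 4 libraries. A gene was included when each of its rows in the deposited tables carried a RefSeq identifier of the non-coding class, when RefSeq annotated it as a long non-coding RNA (lncRNA), and when the summed rows reached 2 FPKM in at least 1 library. FPKM counts fragments per kilobase of transcript and corrects for library depth. Genes whose symbols start with Mir, Snor or Rnu and genes on the X or Y chromosome were left out. This gave 123 genes of the 24232 that could be named. Of 1981 lncRNA genes that passed the other criteria, 1142 were at 0 FPKM in all 4 libraries and 716 lay between 0 and 2 FPKM. The members just inside the threshold were Gm16845, Zbtb11os1 and Gm11423, at most 2.03, 2.03 and 2.04 FPKM. Just outside it were Gm4013, Gm8013 and D330023K18Rik, at most 1.98, 1.92 and 1.89 FPKM. The members were thus selected on their FPKM level in these same libraries, and some reached 2 FPKM in a single group, so counts of members that differ between libraries are descriptions and support nothing.

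The cells were macrophages grown with M-CSF, the growth factor that drives macrophage formation, out of bone marrow taken from 7 weeks old C57BL/6 mice. There was 1 library in each of 4 groups: wild type (WT) and Sema6D-/- cells, each unstimulated or stimulated with LPS. Lipopolysaccharide (LPS), the bacterial cell wall component that activates macrophages through Toll-like receptor 4, was given at 100 ng/ml for 4 h. Sema6D is a transmembrane semaphorin, and the labels describe neither its mutant allele nor the number of animals behind a library. With 1 library per group no difference has a replicate check, so no test was possible and every value describes these 4 libraries.

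An lncRNA is a transcript with no annotated protein product. Some act in the nucleus as scaffolds, such as Neat1 in paraspeckles and Malat1 in nuclear speckles. Others regulate a neighbouring gene in cis, or are host transcripts whose introns or exons are processed into small nucleolar RNAs (snoRNAs) or microRNAs (miRNAs). In activated macrophages many lncRNAs are transcribed beside immune genes, and lincRNA-Cox2 (Ptgs2os2), next to the prostaglandin synthase gene Ptgs2, is the best known in mouse.

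The sequences below are promoters of 4 LPS-induced members that hold a match to a motif of LPS-activated transcription factors. They are RefSeq windows of build GRCm38.p6, from 250 bases before to 50 bases after the annotated start, printed on the strand of the gene. The windows are chr19:11050517-11050816 (minus strand) for AW112010, chr1:150164899-150165198 (minus strand) for Ptgs2os2, chr8:46739466-46739765 (minus strand) for Gm16675 and chr2:128429302-128429601 (minus strand) for Morrbid. Capitals mark motif matches on either strand. AW112010 holds 2 NF-kB matches, Ptgs2os2 and Gm16675 each hold 1 ISRE match, an interferon response motif, and 1 GAS match, the motif bound by STAT factors, and Morrbid holds 1 AP-1 match.
AW112010 promoter: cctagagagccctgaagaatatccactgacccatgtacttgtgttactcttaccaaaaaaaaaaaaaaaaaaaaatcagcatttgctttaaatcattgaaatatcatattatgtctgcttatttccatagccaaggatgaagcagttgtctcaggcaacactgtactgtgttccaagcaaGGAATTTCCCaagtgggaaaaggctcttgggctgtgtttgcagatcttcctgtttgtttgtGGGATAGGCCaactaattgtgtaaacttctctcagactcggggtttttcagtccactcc
Ptgs2os2 promoter: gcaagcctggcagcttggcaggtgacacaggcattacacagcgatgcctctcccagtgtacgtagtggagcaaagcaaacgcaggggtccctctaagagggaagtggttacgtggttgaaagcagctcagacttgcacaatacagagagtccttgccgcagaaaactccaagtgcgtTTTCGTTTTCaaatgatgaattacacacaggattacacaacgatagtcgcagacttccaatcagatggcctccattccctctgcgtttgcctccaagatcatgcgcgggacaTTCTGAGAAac
Gm16675 promoter: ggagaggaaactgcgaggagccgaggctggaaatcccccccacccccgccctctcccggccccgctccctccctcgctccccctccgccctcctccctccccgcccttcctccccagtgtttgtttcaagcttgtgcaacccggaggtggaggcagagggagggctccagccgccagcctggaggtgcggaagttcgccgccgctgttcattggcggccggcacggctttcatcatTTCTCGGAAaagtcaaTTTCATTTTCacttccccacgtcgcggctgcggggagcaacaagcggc
Morrbid promoter: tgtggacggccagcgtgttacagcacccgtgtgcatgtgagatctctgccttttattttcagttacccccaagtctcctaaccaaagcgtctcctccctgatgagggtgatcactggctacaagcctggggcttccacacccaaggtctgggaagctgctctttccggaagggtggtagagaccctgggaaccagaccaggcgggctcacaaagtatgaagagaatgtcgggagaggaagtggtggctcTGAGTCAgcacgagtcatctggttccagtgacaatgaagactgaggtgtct
The motifs searched on both strands were GGGA and CC with any 4 bases between them for NF-kB, TTTC and TTTC with any 2 bases between them for ISRE, TTCNNNGAA for GAS and TGANTCA for AP-1. The promoter table held 110 windows of 98 of the 123 members. NF-kB letters stood in 25.5% of the members' windows and in 20.7% of all 32851 windows, ISRE letters in 6.36% and 3.44%, GAS letters in 5.45% and 8.30%, and AP-1 letters in 4.55% and 7.81%. Among 16 windows of 14 members at least 2-fold higher with LPS in each genotype, 4 held NF-kB letters, 2 ISRE, 2 GAS and 1 AP-1. A match is a description of these letters and not a binding site.

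The libraries held an estimated 17.2 M to 23.4 M fragments, with 9683 to 10056 genes at 1 FPKM or more in each. All 7 macrophage markers were detected, and their summed level, most of it Lyz2, was 17151 to 23323 FPKM. Several things separated the genotypes besides the label. The macrophage marker Mertk was 11.7 FPKM in WT without LPS, 14.9 in WT with LPS, 23.5 in Sema6D-/- without LPS and 61.3 in Sema6D-/- with LPS, and Itgam, found on macrophages and neutrophils, was 404, 538, 225 and 265 FPKM. The summed level of 6 neutrophil markers was 710 FPKM in WT without LPS, 1080 in WT with LPS, 195 in Sema6D-/- without LPS and 294 in Sema6D-/- with LPS. Most of this sum was S100a8 and S100a9. Of 5 neutrophil markers at 1 FPKM or more, all 5 were lower in Sema6D-/- without LPS and 4 with LPS. In the same order of libraries, Retnlg was 5.84, 3.79, 2.43 and 4.31 FPKM, and Ly6g was 0.450, 0.275, 0.310 and 0.418 FPKM. The B cell marker Cd79b was 12.1, 6.99, 3.13 and 0.616 FPKM in the same order, and the summed T cell, erythroid, mast cell and stromal markers stayed under 1 FPKM in each library. The summed level of 4 dendritic cell markers was 0.766, 3.14, 1.90 and 3.78 FPKM. Only 1 of the 4 reached 1 FPKM, Xcr1, at 0.266, 2.52, 1.05 and 2.50 FPKM. Xist, made from the inactive X chromosome, was 22.3, 21.4, 0.0333 and 0.0306 FPKM in the same order, and the Y-linked Eif2s3y was 0.0207, 0, 33.5 and 50.4 FPKM. By these genes the WT libraries were from female cells and the Sema6D-/- libraries from male cells. Sema6d itself was 0.304 and 0.219 FPKM in WT and 0.563 and 0.592 FPKM in the libraries labelled Sema6D-/-, so its level did not check that label. In such bulk RNA, fewer cells of a type and less RNA per cell cannot be told apart.

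Most lncRNAs were low, and a few carried most of the signal. Over members, the median of the highest library was 4.72 FPKM. Only 25 of 123 reached 10 FPKM in some library and 3 reached 100 FPKM. The members together made up 0.258% of the named FPKM total in WT without LPS, 0.263% in WT with LPS, 0.263% in Sema6D-/- without LPS and 0.431% in Sema6D-/- with LPS. In the last library the 3 most abundant members held 72.9% of the members' total, against 35.5%, 51.3% and 35.0% in the other libraries. There were 49 members at 2 FPKM or more in all 4 libraries, 14 in 3, 34 in 2 and 26 in 1 library. Of all 123 members, 23 reached 2 FPKM only with LPS (18.7%), 29 only without LPS (23.6%), 7 only in WT (5.69%) and 26 only in Sema6D-/- (21.1%). Among protein-coding genes chosen at 2 FPKM, and not matched to the members in level, these shares were 3.26%, 6.68%, 2.19% and 3.15%.

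**Figure D1:**
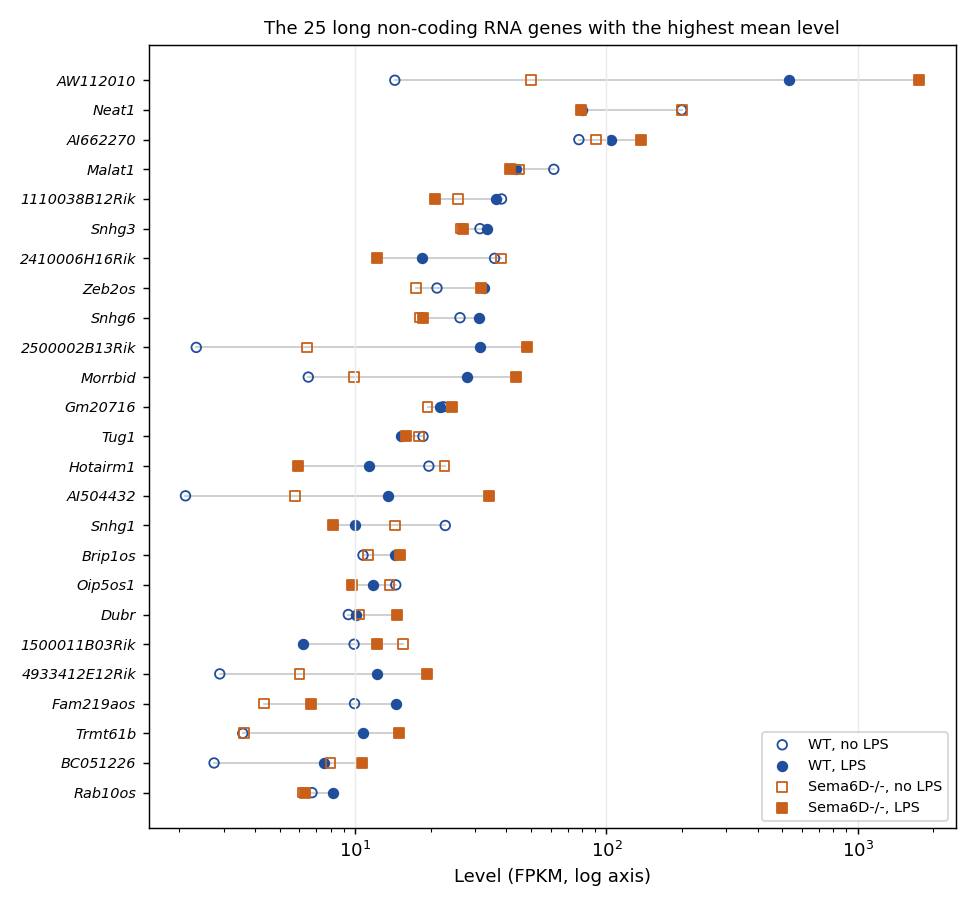
Level in FPKM on a log axis of the 25 members with the highest mean, 1 symbol per library; circles are WT, squares Sema6D-/-, open symbols without LPS and filled symbols with LPS. AW112010 spans 14.4 to 1749 FPKM, Neat1 falls into a pair of levels near 80.0 and 199 FPKM by LPS, and Tug1, Gm20716 and Snhg3 hold all 4 symbols close together.

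The most abundant member was AW112010, annotated as non-coding and described in mouse macrophages as translated from a non-canonical reading frame. Its level was 14.4 FPKM in WT without LPS, 534 in WT with LPS, 49.97 in Sema6D-/- without LPS and 1749 in Sema6D-/- with LPS. Both LPS libraries were far above both unstimulated ones, and in each state the Sema6D-/- library was the higher. Neat1, the scaffold of paraspeckles, was 199, 80.0, 200 and 79.3 FPKM in that order of libraries, so it followed LPS and not genotype. Nearly all of it was in the row of the short transcript, while the row of the long transcript, the one that builds paraspeckles, was 0.265, 0.222, 0.127 and 0.130 FPKM. The short transcript's sequence is also the start of the long one, so the split between rows is the authors' estimate. The libraries were made with an mRNA kit, and whether it recovered both transcripts equally was not tested.

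AI662270, next to the Schlafen gene Slfn3, came next by mean level at 77.7, 104, 91.0 and 138 FPKM and was above its unstimulated level in both LPS libraries. Malat1, which concentrates in nuclear speckles, was 61.7 FPKM in WT without LPS and 43.8, 44.9 and 41.5 FPKM in the other libraries. WT without LPS thus stood above a set of 3 nearly equal values. Zeb2os, the antisense transcript of the transcription factor gene Zeb2, was 21.2, 32.5, 17.5 and 31.5 FPKM, higher in both LPS libraries. Tug1, a nuclear lncRNA regulated by p53, lay between 15.2 and 18.6 FPKM.

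The LPS comparison asked which lncRNAs differ after 4 h of stimulation within a genotype. A log2 ratio below is of (FPKM + 1), which understates ratios of low genes, and a member counts as higher or lower at 2-fold or more. A ratio followed by square brackets has no added 1, and the brackets hold its 95% exact (Clopper-Pearson) interval from estimated fragments, which covers counting error only. In WT, 19 of 118 measured members were higher and 10 were lower, where 10.7% of all measured genes were higher and 4.85% lower; among protein-coding genes chosen at the same 2 FPKM threshold these shares were 10.9% and 4.6%. In Sema6D-/-, 24 of 122 were higher and 20 lower, where 14% of all genes were higher and 8.81% lower, and 14.3% and 8.61% of those protein-coding genes. The median ratio of the members was -0.11 in WT and -0.09 in Sema6D-/-, against 0.00 and 0.01 for all measured genes. The counts depended on scaling: with each library rescaled to a common FPKM total they were 13 higher and 31 lower in WT, and 14 higher and 41 lower in Sema6D-/-. Centred on the median of 6110 well-measured genes they were 17 and 15 in WT, and 22 and 25 in Sema6D-/-.

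In the deposited scaling 16 members, 13.01%, were higher with LPS in both genotypes, where 9.31% of all genes were. They were AW112010, 2500002B13Rik, Morrbid, AI504432, 4933412E12Rik, Trmt61b, A930015D03Rik, Gdap10, 6530402F18Rik, U90926, AW011738, E230013L22Rik, Gm16675, Ptgs2os2, 4933432I03Rik and E130102H24Rik. Another 7 members, 5.69%, were lower in both, where 3.76% of all genes were: Neat1, AI839979, Snhg20, 1600010M07Rik, Map2k3os, 2610507I01Rik and Gm5086. No member was at least 2-fold apart in opposite directions. Rescaled to a common total, 8 of the 16 and all 7 of the lower members stayed past 2-fold in both genotypes. The pairs of libraries behind these comparisons are separate, so a gene of either set was apart the same way in 2 pairs.

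**Figure D2:**
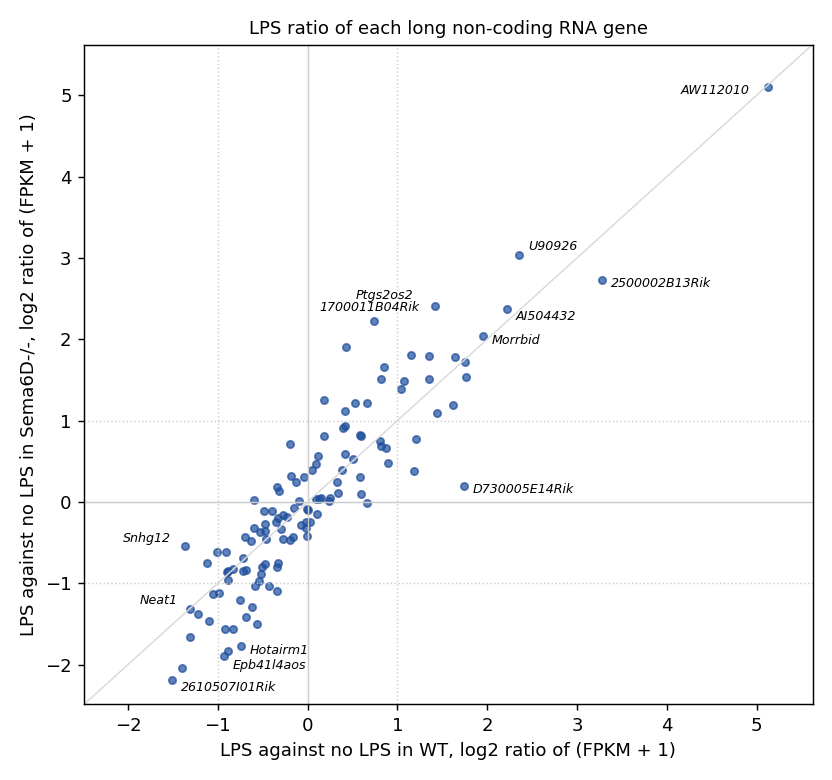
LPS against no LPS in WT (x) and in Sema6D-/- (y) as log2 ratios of (FPKM + 1), 1 point per member; dotted lines mark 2-fold and the diagonal marks equal ratios. AW112010 lies at 5.12 and 5.10, Neat1 at -1.31 and -1.32, and D730005E14Rik, at 1.74 and 0.20, lies farthest below the diagonal.

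Among members known from inflammatory macrophages, AW112010 had an LPS ratio of 5.22 [5.03, 5.40] in WT and 5.13 [5.01, 5.24] in Sema6D-/-, so the counting intervals overlap. Ptgs2os2 was 0.294, 2.47, 0.405 and 6.47 FPKM. Its ratio was 3.07 [2.23, 4.00] in WT and 4.00 [3.20, 4.89] in Sema6D-/-, on 14 fragments in each unstimulated library. Morrbid, which in mouse represses the pro-apoptotic neighbour Bcl2l11 in short-lived myeloid cells, was 6.51, 27.97, 9.91 and 43.8 FPKM. Both LPS libraries were above both unstimulated ones, with log2 ratios of 1.95 and 2.04. Bcl2l11 was 30.7, 24.7, 37.8 and 30.9 FPKM, with ratios of -0.30 and -0.28. U90926, an RNA known from LPS-treated mouse macrophages, was 0.407 and 6.22 FPKM in WT, listed at 0 in Sema6D-/- without LPS and 7.18 FPKM with LPS.

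Hotairm1, a myeloid lncRNA of the Hoxa cluster, went the other way. It was 19.6 FPKM in WT without LPS, 11.4 in WT with LPS, 22.7 in Sema6D-/- without LPS and 5.92 in Sema6D-/- with LPS, so both LPS libraries were the lower. Its ratios were -0.74 and -1.78. The tables do not state whether strand was used in counting, so reads of overlapping genes cannot be told apart. The remaining members of that list were Snhg14, at 4.86, 3.65, 5.14 and 4.37 FPKM, and Gm15987, at 3.98, 7.77, 1.88 and 3.63 FPKM. In all, 6 of its 24 listed genes were members, 14 had rows but were not members and 4 had no row.

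The other members with large LPS ratios are known mainly by position. 2500002B13Rik was 2.33, 31.3, 6.43 and 48.2 FPKM, with ratios of 3.28 and 2.73. Its neighbour Sap30, a subunit of the Sin3 histone deacetylase complex, was 30.6, 206, 53.5 and 293 FPKM. AI504432 was 2.11, 13.5, 5.76 and 34.1 FPKM, with ratios of 2.68 [2.51, 2.85] and 2.56 [2.44, 2.69]. Kcna3 beside it, the potassium channel Kv1.3, was 2.84, 16.1, 7.53 and 39.3 FPKM, with nearly the same pattern over the 4 libraries. 4933412E12Rik was 2.89, 12.2, 6.00 and 19.2 FPKM. Gdap10 was 1.34, 6.30, 1.43 and 7.36 FPKM and overlaps Nampt, an enzyme of NAD synthesis, at 62.9, 272, 69.5 and 412 FPKM. Trmt61b, whose human counterpart names a mitochondrial tRNA methyltransferase but whose rows here are all non-coding transcripts, was 3.57, 10.7, 3.61 and 14.9 FPKM.

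Protein-coding neighbours of the induced lncRNAs were often induced as well. Of 9 measured coding genes that overlap a member higher in WT, 8 were at least 2-fold higher themselves, and of 29 measured coding genes adjacent to such a member 13 were, where 10.7% of all genes were higher. In Sema6D-/- it was 8 of 13 overlapping and 18 of 33 adjacent genes, where 14% of all genes were higher. The overlapping genes belonged to 7 members in WT and 9 in Sema6D-/-, so some members entered more than once. Reads of overlapping genes cannot be told apart, as given above for Hotairm1. Isg15, the interferon-induced ubiquitin-like protein beside AW011738, was 96.9, 1212, 204 and 1700.2 FPKM. AW011738 itself was 0.344, 3.52, 1.33 and 6.72 FPKM. Acod1, the itaconate-producing enzyme beside 4933432I03Rik, was 131, 3917, 357 and 5883 FPKM. 4933432I03Rik was 1.06, 3.58, 0.468 and 4.14 FPKM, so the lncRNA and the coding gene were both higher with LPS in both genotypes. Gm16675, whose promoter is printed above, was 0.783, 2.66, 1.32 and 5.07 FPKM. Irf2 beside it, an interferon regulatory factor, was 31.6, 118, 48.7 and 173 FPKM. Ptgs2, at 6.29, 107, 5.67 and 495 FPKM, had ratios of 3.89 and 6.22 on the log2(FPKM + 1) scale. Ptgs2os2 had 1.42 and 2.41 on that scale, which understates ratios of low genes such as this lncRNA. AW112010 had no measured coding neighbour. Among members lower with LPS in WT, 2 of 16 measured adjacent genes were lower, and in Sema6D-/- 6 of 30, where 4.85% and 8.81% of all genes were lower.

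**Figure D3:**
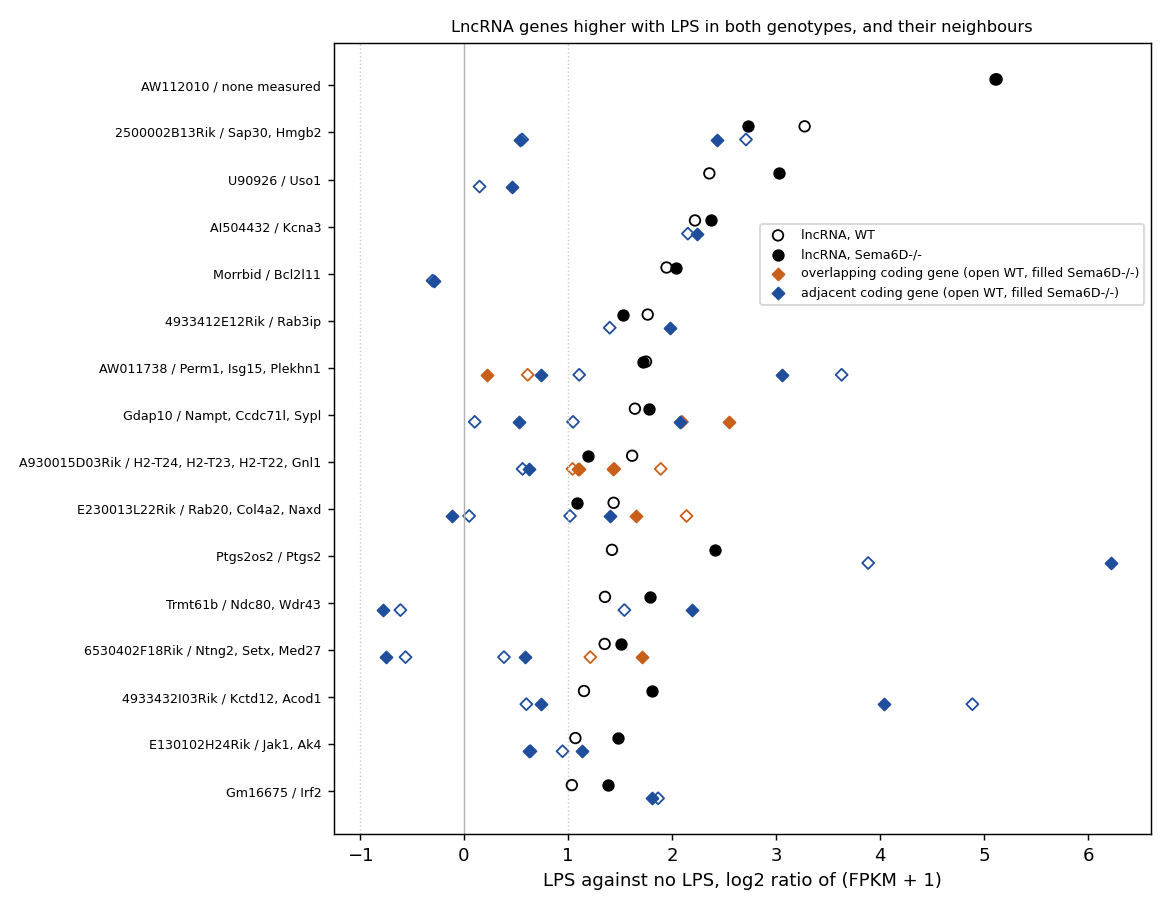
LPS ratios, as log2 of (FPKM + 1), of the 16 members higher in both genotypes (black circles) and of the overlapping (orange) and adjacent (blue) protein-coding genes named on the axis (diamonds); open symbols are WT and filled symbols Sema6D-/-. Ptgs2, Acod1 and Isg15 lie to the right of their lncRNAs, Kcna3 lies close to AI504432, and Bcl2l11 lies below 0 beside Morrbid.

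Among members lower with LPS, Neat1 had a ratio of -1.32 [-1.37, -1.27] in WT and -1.33 [-1.39, -1.28] in Sema6D-/-. Its genotype ratio was 0.00 [-0.03, 0.04] without LPS and -0.01 [-0.07, 0.05] with LPS. AI839979 was 6.94, 2.40, 9.02 and 2.85 FPKM, lower in both LPS libraries. 1600010M07Rik was 6.99, 2.04, 5.52 and 0.583 FPKM, and its last value rests on 4 fragments. 2610507I01Rik was 4.08, 0.787, 4.97 and 0.311 FPKM, with LPS ratios of -1.51 and -2.19, the lowest of any member with the added 1. Without the added 1 others lie far down on few fragments, such as Gm5086 at -3.39 [-5.73, -1.76] in WT and -3.43 [-5.35, -1.99] in Sema6D-/-, on 3 and 4 fragments with LPS. Peg13, a paternally expressed imprinted lncRNA within Trappc9, was 3.35, 1.58, 4.69 and 1.46 FPKM and its ratios were -0.75 and -1.21. Trappc9 itself was 6.25, 6.36, 7.52 and 8.90 FPKM, with no such difference. Neat1, Malat1 and Peg13 were the 3 members of the list of nuclear-retained lncRNAs, and all 3 had LPS ratios below 0 in both genotypes in each scaling tried. Lockd, transcribed downstream of the cell cycle inhibitor gene Cdkn1b, was 3.25, 1.31, 2.48 and 0.795 FPKM.

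By position, 16 members held a snoRNA gene. They are called hosts below, but strand and introns were not considered and release of a snoRNA was not tested. Known host RNAs are spliced to release box C/D or H/ACA snoRNAs, which guide the modification of ribosomal RNA. Many of the remaining spliced RNAs are removed by nonsense-mediated decay. With LPS 13 of 15 measured hosts were below 0 in WT and 13 of 16 in Sema6D-/-, with medians of -0.40 and -0.51. Of all measured members 66 of 118 and 64 of 122 were below 0, with medians of -0.11 and -0.09. No host was 2-fold higher in either genotype. In WT 2 were 2-fold lower, Snhg1 and Snhg12, and in Sema6D-/- another 2, 2410006H16Rik and Epb41l4aos. Of all genes 4.85% and 8.81% were lower. In genotype, 10 of 16 had ratios below 0 without LPS and 12 of 15 with LPS, with medians of -0.42 and -0.39, where 48 of 116 and 51 of 111 measured members were below 0. None of these medians changed sign in the scalings tried, but they lie within 2-fold, and 1 library per group gives no spread to hold them against. Estimated fragments of a host ranged from 0, for AA465934 in WT with LPS, to 699, for Gas5 in WT without LPS.

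Snhg1 was 22.8, 9.997, 14.4 and 8.18 FPKM, highest in WT without LPS and lowest in Sema6D-/- with LPS. Its LPS ratio was -1.19 [-1.55, -0.83] in WT and -0.82 [-1.29, -0.36] in Sema6D-/-. Snhg12 was 10.5, 3.44, 6.77 and 4.34 FPKM, with LPS ratios of -1.60 [-2.23, -1.01] and -0.64 [-1.30, 0.03]. Snhg15 was 8.83, 4.33, 4.71 and 2.17 FPKM, with WT without LPS the highest. Gas5, a growth arrest transcript that carries many box C/D snoRNAs, was 9.68, 5.89, 6.05 and 4.04 FPKM. Its LPS ratios were -0.72 [-0.92, -0.52] and -0.58 [-0.87, -0.30], and its genotype ratios -0.68 [-0.87, -0.48] and -0.54 [-0.83, -0.25]. These 4 hosts share the order of highest in WT without LPS, and 3 of them, all but Snhg12, were lowest in Sema6D-/- with LPS.

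2410006H16Rik, which holds Snord49a, Snord49b and Snord65, was 35.9, 18.5, 38.0 and 12.2 FPKM and so followed LPS. Epb41l4aos was 8.33, 3.89, 8.57 and 1.57 FPKM, with the same order. Snhg3 was 31.4, 33.5, 26.2 and 26.8 FPKM and Snhg6 was 26.1, 31.2, 18.01 and 18.7 FPKM. In both, the LPS and unstimulated libraries of a genotype lay close and the Sema6D-/- libraries were the lower. Snhg6 had genotype ratios of -0.54 [-0.93, -0.15] and -0.74 [-1.18, -0.29]. 1110038B12Rik, which holds Snord52, was 38.2, 36.3, 25.6 and 20.8 FPKM. Snhg5, Snhg8, Snhg14, Snhg16, Snhg4 and Rab26os lay between 0.698 and 5.14 FPKM. AA465934, which holds Snord7, had the highest genotype ratios of the hosts and is described with the genotype comparison. Of 8 measured core proteins that bind snoRNAs none was 2-fold apart in any comparison. Their medians were 0.02 and 0.06 with LPS, and -0.29 and -0.29 in genotype, so by the median they were flatter with LPS than the hosts. With LPS 4 of the 8 were above 0 and 4 below in each genotype. Nop56, at -0.74 and -0.62, and Dkc1, at -0.60 and -0.56, lay below the hosts' medians of -0.40 and -0.51.

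**Figure D4:**
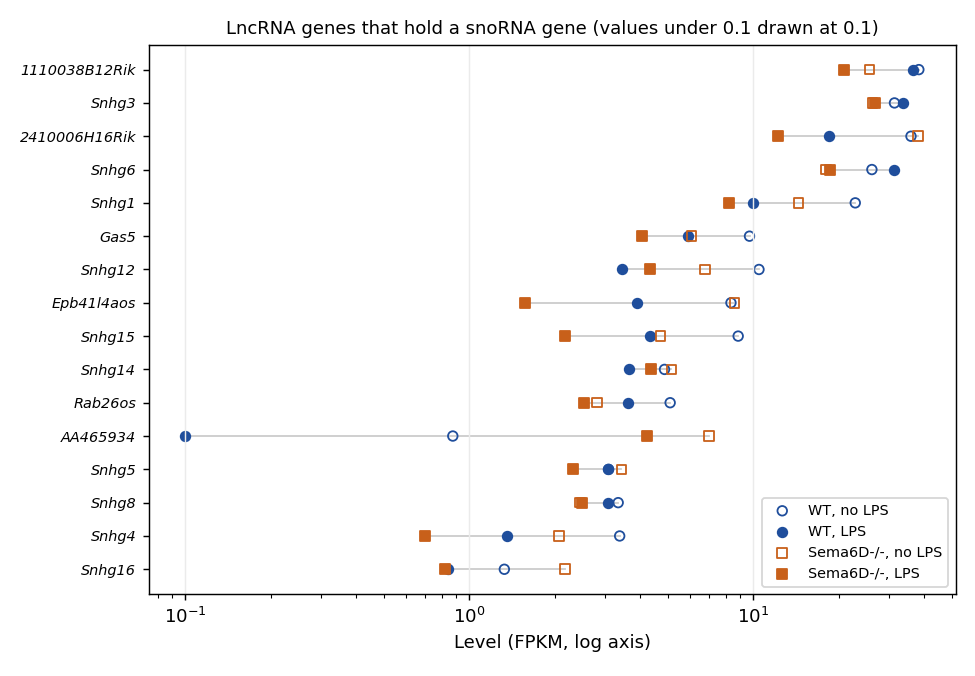
Level in FPKM on a log axis of the 16 members that hold a snoRNA gene, 1 symbol per library; circles are WT, squares Sema6D-/-, open without LPS and filled with LPS, and a value under 0.1 FPKM is drawn at 0.1. For Snhg1, Gas5 and Snhg15 the open circle (WT without LPS) lies farthest right, while 2410006H16Rik and Epb41l4aos split by LPS.

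Another 6 members held a miRNA gene by position: E130102H24Rik, Dleu2, Gm15987, Snhg20, Dubr and Snhg4. The mature miRNAs of the best-known hosts are printed from RefSeq (GRCm38.p6) with the seed, bases 2 to 8, in capitals, beside miR-155-5p and miR-22-3p, whose hosts were left out of the members by their symbols.
miR-101a-3p: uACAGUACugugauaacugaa
miR-15a-5p: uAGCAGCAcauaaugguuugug
miR-16-5p: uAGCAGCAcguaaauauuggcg
miR-155-5p: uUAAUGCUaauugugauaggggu
miR-22-3p: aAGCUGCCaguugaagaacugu
The miRNAs miR-15a-5p and miR-16-5p, both from Dleu2, share the seed AGCAGCA. Dleu2, known for its deletion in human chronic lymphocytic leukaemia, was 1.19, 1.39, 2.09 and 2.18 FPKM, with LPS ratios of 0.22 [-0.44, 0.91] and 0.06 [-0.53, 0.65]. Trim13, a coding gene that overlaps it, was 6.85, 26.5, 9.47 and 39.4 FPKM, so the coding gene was higher with LPS and both counting intervals of the host include 0. E130102H24Rik, host of Mir101a, was 0.773, 2.73, 0.901 and 4.31 FPKM and higher in both LPS libraries. Snhg20, host of Mir6516, was 6.45, 1.997, 5.97 and 1.21 FPKM, and its neighbour Sec14l1 was 39.9, 15.1, 43.0 and 9.06 FPKM, so both were lower with LPS. Dubr was 9.39, 10.1, 10.4 and 14.7 FPKM.

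For comparison, Mir155hg, the host of the inflammatory miR-155, was 0.244, 21.9, 0.926 and 57.1 FPKM, with LPS ratios of 4.20 and 4.92 on the log2(FPKM + 1) scale. Mir22hg lay between 10.7 and 20.7 FPKM. F630028O10Rik, the X-linked host of Mir223, was 18.8, 5.22, 7.62 and 2.48 FPKM. Mir155hg was thus higher and F630028O10Rik lower in both LPS libraries. These are levels of host transcripts and not of mature miRNAs.

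The genotype comparison asked which lncRNAs differ between Sema6D-/- and WT in the same state. Without LPS 8 of 116 measured members were higher in Sema6D-/- and 3 lower, where 2.51% of all genes were higher and 2.19% lower, and 2.27% and 1.69% of protein-coding genes chosen at 2 FPKM. With LPS 11 of 111 were higher and 5 lower, where 3.09% and 3.17% of all genes were, and 2.76% and 2.68% of those protein-coding genes. Rescaled to a common total, the counts with LPS were 7 higher and 8 lower. The medians of the members were 0.12 and 0.07, against 0.04 and 0.04 for all measured genes. In both states 5 members, 4.07%, were higher and 3 members, 2.44%, were lower, where 1.01% and 1.23% of all genes were. The pairs of libraries are separate here too. As given above, Mertk, Itgam, most neutrophil markers, Cd79b and sex-linked genes also differed between the genotypes in both states. Their part in these results was not tested. By the sex-linked genes, sex ran with genotype in both pairs, so differences by sex and by genotype cannot be told apart. The same direction in both pairs does not separate them.

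AW112010 was higher in Sema6D-/- in both states, with ratios of 1.80 [1.59, 2.01] without LPS and 1.71 [1.67, 1.75] with LPS, so its LPS ratio was nearly the same in both genotypes while its level was not. AI504432 had genotype ratios of 1.45 [1.26, 1.64] and 1.33 [1.24, 1.43], and Kcna3 beside it had 1.15 and 1.24 on the log2(FPKM + 1) scale. AA465934, which holds Snord7, was 0.874 FPKM in WT without LPS, listed at 0 in WT with LPS, and 6.97 and 4.22 FPKM in Sema6D-/-. Its values rest on 5, 0, 30 and 13 fragments. 1700011B04Rik was listed at 0 in WT without LPS and was 0.668, 1.10 and 8.80 FPKM in the other libraries, with Sema6D-/- with LPS far above the rest. 1500015A07Rik was 0.760, 0.268, 2.69 and 1.88 FPKM, but its higher values lie under 3 FPKM and it was no longer past 2-fold in both states with rescaling to a common total.

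Among members lower in both states, Fam219aos was 9.94 and 14.5 FPKM in WT and 4.33 and 6.68 FPKM in Sema6D-/-. Its ratios were -1.20 [-1.68, -0.72] and -1.12 [-1.58, -0.66]. Fam219a, the overlapping coding gene after which it is named, was 18.2, 26.6, 7.49 and 11.7 FPKM, with ratios of -1.18 and -1.12 on the log2(FPKM + 1) scale, so the pair moved alike and their reads cannot be told apart. 1700003M07Rik was 7.20 and 7.10 FPKM in WT and 1.88 and 1.42 FPKM in Sema6D-/-. Its adjacent gene Ptp4a2, a phosphatase, was 102, 97.9, 102 and 85.9 FPKM and did not share that difference. C920009B18Rik, beside the stress ligand genes H60b and Raet1d, was 6.03 and 5.42 FPKM in WT and 1.52 and 1.98 FPKM in Sema6D-/-. Its ratios were -1.99 [-2.25, -1.73] and -1.45 [-1.74, -1.18]. In each of these 3 the WT libraries lay above both Sema6D-/- libraries whatever the LPS state.

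**Figure D5:**
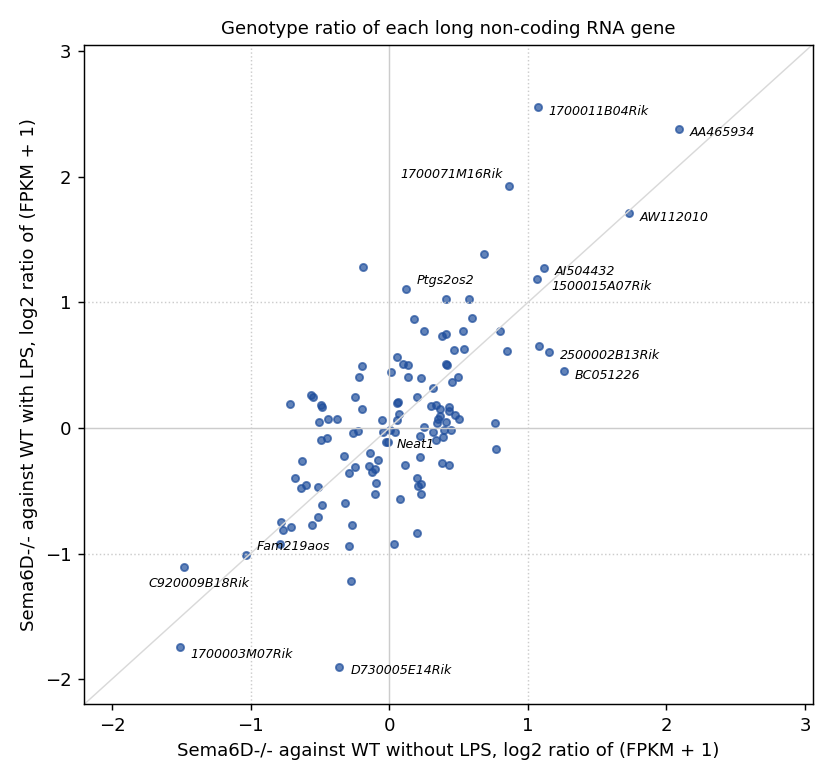
Sema6D-/- against WT without LPS (x) and with LPS (y) as log2 ratios of (FPKM + 1), 1 point per member; dotted lines mark 2-fold and the diagonal marks equal ratios. AW112010 (1.73 and 1.71) and AI504432 (1.12 and 1.27) lie near the diagonal at the upper right, 1700003M07Rik (-1.51 and -1.74) at the lower left, and Neat1 at the centre.

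Further members ranked high or low in a genotype ratio. BC051226, beside the histone chaperone gene Daxx, was 2.75, 7.54, 7.99 and 10.7 FPKM. Its genotype ratio was 1.54 [1.11, 1.98] without LPS and 0.50 [0.13, 0.86] with LPS, since the WT library without LPS was the low one. 1700071M16Rik, which overlaps Pla2g7, a secreted phospholipase, was 1.10, 1.39, 2.83 and 8.11 FPKM. Pla2g7 was 280, 395, 471 and 835 FPKM, with the same order of libraries. Gm13710, next to the coagulation inhibitor gene Tfpi, was 5.06, 3.95, 2.56 and 1.82 FPKM, and Tfpi was 7.30, 8.03, 3.39 and 4.65 FPKM. For both genes the Sema6D-/- libraries were the lower ones. Gm15987, within the Clec2 cluster of lectin receptor genes, had genotype ratios of -1.08 [-1.45, -0.72] and -1.10 [-1.42, -0.80], which were -0.79 and -0.92 with the added 1 and so not counted above. Ptgs2os2 had 0.46 [-0.71, 1.64] without LPS and 1.39 [0.99, 1.80] with LPS, and the first of these is within counting error of 0.

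The difference of the LPS ratios, Sema6D-/- minus WT, was 2-fold or more for few members. It was at least 1 for 3 members and at most -1 for 2, of 123, where 1.83% and 1.25% of all genes were so, and 1.39% and 0.802% of protein-coding genes chosen at 2 FPKM. Rescaled to a common total the counts were 1 and 4. The positive ones were 1700011B04Rik at 1.48, Gm9895 at 1.47 and 1700071M16Rik at 1.07. Gm9895 was 0.141 and 0.537 FPKM in WT, listed at 0 in Sema6D-/- without LPS and 2.74 FPKM with LPS. For 1700011B04Rik and Gm9895, with 1 library listed at 0, the size depends on the added 1, and with an added 0.1 the value for 1700011B04Rik was -0.056. Hotairm1 had a difference of -1.04 and was lower with LPS in both genotypes.

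D730005E14Rik had the lowest difference, -1.54, at 0.317, 3.40, 0.0264 and 0.178 FPKM. Without the added 1 its LPS ratio was 3.42 [2.88, 3.99] in WT and 2.75 [0.52, 5.98] in Sema6D-/-, on 2 and 10 fragments in the latter, so the 2 intervals overlap. Its genotype ratio with LPS was -4.26 [-5.32, -3.34], on 232 fragments in WT and 10 in Sema6D-/-. Apobec3, the antiviral cytidine deaminase gene it overlaps, was 20.5, 157, 18.2 and 69.4 FPKM, so it too was lower in Sema6D-/- with LPS. Epb41l4aos and 4930455G09Rik, at -0.96 and -0.94, came next among members at 5 FPKM or more. 4930455G09Rik was 6.32, 3.95, 5.04 and 1.13 FPKM, with 8 fragments in the last library.

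Protein partners of these RNAs were compared as well. Of 9 measured paraspeckle proteins none was 2-fold apart with LPS in WT and 1 was higher in Sema6D-/-. Of all measured genes 10.7% and 14% were higher. The 1 protein past 2-fold was the X-linked Nono, which binds Neat1, at 27.0, 53.5, 31.4 and 74.7 FPKM. Its LPS ratios were 0.96 in WT and 1.22 in Sema6D-/- on the log2(FPKM + 1) scale, so in WT it lay just under 2-fold. None of 5 nuclear speckle proteins and none of 5 hnRNP proteins known to bind LPS-induced lncRNAs was 2-fold apart in any comparison. The helicase Upf1, the core of the nonsense-mediated decay pathway, was 29.2, 24.5, 27.4 and 22.1 FPKM.

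On the log2(FPKM + 1) scale 28 of 123 members, 22.8%, stayed under 1.5-fold in all 4 comparisons, where 49.95% of 9479 protein-coding genes chosen at 2 FPKM did, a set not matched to the members in level. Malat1, Tug1, Norad, Oip5os1, Chaserr and Dleu2 were among the 28. For Dleu2 this rests on the added 1, since its genotype ratio without LPS was 0.81 [0.24, 1.43] without it. Gt(ROSA)26Sor, the transcript of the locus widely used for transgene insertion, was 4.43, 4.44, 4.40 and 4.04 FPKM. Norad, which sequesters Pumilio proteins, was 4.99, 4.10, 5.87 and 5.06 FPKM. Oip5os1 (Cyrano), which directs the decay of miR-7, was 14.5, 11.8, 13.7 and 9.75 FPKM. Chaserr, which restrains its neighbour Chd2 in mouse, was 1.57, 1.54, 2.26 and 1.62 FPKM. Of the list of growth, p53 and stress lncRNAs 6 were members, and with the added 1 only Epb41l4aos among them was 2-fold apart in a comparison. Without the added 1 the LPS ratios of Lockd were -1.31 [-2.60, -0.27] and -1.64 [-3.27, -0.03].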

How the data were processed

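Messenger RNA libraries (stranded mRNA kit) of 4 samples, 1 per group, were compared. The authors deposited FPKM per RefSeq transcript; the submitters' processing notes name Cuffnorm 2.2.1, Bowtie2 2.2.3, TopHat2 2.0.13 and SAMtools 0.1.19, and build mm9. Options, strand setting and library scaling are not given in the sources used here. The titles gave the LPS state. For RNA extraction the labels disagree on the reagent.

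Of 34487 transcripts, 34159 were named by the GRCm38.p6 RefSeq table and 191 by GENCODE vM21; 137 were unmatched, 9 of them non-coding transcripts at 2 FPKM or more. Rows were summed per symbol. A gene was measured in a comparison at 1 FPKM or more in 1 of its libraries. Ratios were log2((FPKM + 1)/(FPKM + 1)). Depth came from steps of low FPKM values: 72.5 to 74.2% lay within 0.1 of a whole fragment, against 20% by chance. Intervals were given for genes with at least 95% of their level in 1 row. The ratio and depth code was tested on simulated data. Neighbours and snoRNA or miRNA genes came from the GRCm38.p6 gene order. Python 3.11.15, pandas 2.3.3, NumPy 2.4.6, SciPy 1.17.1 and Matplotlib 3.10.9 were used.

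Named genes were listed lncRNAs, the 5 highest and 5 lowest ratios per comparison (3 for the difference) at 5 FPKM or more, the 10 most abundant, and 3 on either side of the threshold; members of the counted sets of 16, 7, 5 and 3, and a few others (D730005E14Rik, Gm9895, Gt(ROSA)26Sor, Norad), were named after their values were seen. Members and lists were chosen with earlier results of these data known. Alternatives were another pseudocount, scalings, filters, row choice, transcript length and size rule. Values of a few neighbouring and listed genes are not reported here.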

Additional observations from a re-analysis of the deposited data

How the results depend on the processing

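No paired analysis was possible because each group has 1 library, and for the same reason no library could be left out. Counts of members are given as higher and lower in the order LPS in WT, LPS in Sema6D-/-, genotype without LPS, genotype with LPS and difference of LPS ratios. With an added 0.1 in place of 1, lower counts were 23 and 33 for LPS, counts were 14 and 6 for genotype without LPS, lower was 12 with LPS, and 9 and 12 for the difference. Rescaled to a common FPKM total, which moved the median of 6110 genes by -0.51 and -0.71 for LPS and by -0.21 in the last 2 comparisons, counts were 13 and 31, 14 and 41 for LPS, while genotype with LPS gave 7 and 8, and the difference gave 1 and 4. The members' medians became -0.53 and -0.68 for LPS; they were -0.12 in genotype with LPS and -0.21 in the difference. At a 1.5-fold size rule they were 29 and 31 for LPS in WT, 36 lower for LPS in Sema6D-/-, 14 and 12, 23 and 17, and 14 and 15. With members at 5 FPKM or more, 11 were lower for LPS in Sema6D-/-, 6 higher for genotype with LPS, and 1 lower in the difference. With no filter on low values 5 were lower in the difference, and without short transcripts 1 was. Without members that overlap a coding gene, a choice made after seeing the data, 11 and 14 were higher for LPS, 7 were higher and 3 lower for genotype with LPS, and 0 were lower in the difference. Fewer genes enter the last alternatives by construction; the cause of the other changes was not tested. Centring on the median and using the largest row kept each count within 1.5 times. Of 240 named ratios 53 were past 2-fold. Of these, 52 stayed past it with an added 0.1, 48 with a common total, 53 centred and 52 with the largest row. Ratios newly past 2-fold numbered 27, 27, 8 and 0 in that order. The difference for 1700011B04Rik turned from 1.48 to -0.056 with an added 0.1. Depth limits low members: 1600010M07Rik rests on 4 fragments in Sema6D-/- with LPS.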
